A study of Mus musculus with 2 samples.

Results

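Ubiquitin ligases of 12 gene families were examined in mouse cells of embryonic origin, before and after the derivation of stem cells with a small molecule. Genes were taken by symbol, those beginning Trim, Rnf, Fbxo, Fbxl, Fbxw, Klhl, Asb, Cul, Herc or Mib and a digit, or beginning Nedd4 or Siah, with Fbxo15 left out. The rule found 173 of the 11484 genes on the array, where the RefSeq annotation holds 304 protein-coding genes of such symbols. They were read by 188 probes, 1 probe for 159 of the genes. The families with the most measured genes were Rnf (50), Trim (36), Fbxo (23) and Klhl (19), followed by Fbxl (12), Asb (9), Fbxw (8), Cul (6), Herc (4), Mib (2), Nedd4 (2) and Siah (2).

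The study measured total RNA from 2 samples on a 1-colour oligonucleotide array. The first was the parental cells, at passage 1 in medium with fetal bovine serum, and the second the stem cells generated with the small molecule (below, the derived stem cells), at passage 5 in ES (embryonic stem) cell medium. Both carry the strain label C57/ICR, and the labels name neither the tissue of origin nor the compound, its dose or its duration. The design text counts 3 replicates for each sample, while the deposited values hold 1 column for each. Whether a column is 1 array or a mean of 3 was not settled. No test between the samples was thus possible and no error between cultures can be given. Passage, medium and treatment cannot be told apart.

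Ubiquitin ligases, or E3 enzymes, give the ubiquitin system its specificity: they hold a substrate and let ubiquitin be moved to it from a carrier enzyme, the E2. Most work through a RING domain, as Rnf and Trim proteins do, or form a covalent intermediate through a HECT domain, as the Nedd4 and Herc proteins do. Cullins are scaffolds that join a small RING protein to exchangeable substrate receptors, among them the F-box proteins (Fbxo, Fbxl, Fbxw), the BTB-Kelch proteins (Klhl) and the SOCS box proteins (Asb). In ES cells, ligases of these families are known for silencing chromatin, for setting the stability of transcription factors and for driving the cell cycle.

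Intensities are normalised values on a linear scale, given below as the parental value and then that of the derived stem cells. A gene under the floor, set at the 25th percentile of its sample (93.8 in the parental and 93.4 in the derived stem cells), in both samples is called dim and has no fold. A gene with only 1 value under the floor has a bound in place of a fold, computed against the floor and written "at least". In 613 genes read by 2 probes, single probes scattered around their gene with an SD of 1.05 on the log2 scale, equal to 2.07-fold, so a single-probe difference of about 2-fold lies within the probe error. A difference of 4.29-fold corresponds to 2 such SDs. Having 1 column per sample limits the precision further.

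Of 10 listed pluripotency markers 8 were measured, and 7 were 2-fold or more higher in the derived stem cells, with a summed intensity of 726 and 106303. Nanog was not, at 77.7 and 94.7, the second value just above the floor. Pou5f1 was at 37.8 and 639, at least 6.82-fold higher. All 5 measured fibroblast markers of 10 listed were lower, with sums of 165304 and 1061. Macrophage and leukocyte markers (6 of 10 measured) went both ways, 1 higher and 3 lower. Their sums were 7496 and 13142, with the higher gene, Laptm5, at 1287 and 12204. The lower ones were C1qa (3198 and 35.7, the second value under the floor), Fcer1g (1894 and 206) and Cd68 (728 and 310). Of the germ cell markers 5 of 10 were measured, with sums of 367 and 4375, and of the 4 above the floor 3 were higher and none lower: Tdrd12 (at least 31.2-fold), Piwil2 (at least 9.19-fold) and Dmrt1 (at least 2.86-fold), with Ddx4 at 191 and 258. Of 5 measured skeletal muscle markers of 10 listed 2 were higher and none lower, Tnnc2 (at least 2.69-fold) and Myh3 (at least 1.52-fold), with Myog at 101 and 89.1 and sums of 668 and 993. None was listed at 0. The part of these cell types in the differences below was not tested, and in bulk RNA fewer cells of a type and less RNA per cell cannot be told apart.

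At 2-fold or more, ligase genes went in both directions in about the proportion seen on the whole array. Of the 173 genes 22 were dim and 151 passed the floor in at least 1 sample. Of those 151, 32 (21.2%) were higher in the derived stem cells by 2-fold or more, where 22.1% of all 9783 genes above the floor were, and 41 (27.2%) were lower, against 22.6% of all genes. The other 78 differed by less than 2-fold. At 4-fold or more, 6 of the 151 were higher and 12 lower, both smaller shares than the 7.50% and 10.3% of all genes. By the bound 10 of those 12 were still 4-fold lower, as were 894 of all 9783 genes. Computed with bounds at 2-fold, 31 of the 151 were higher and 38 lower, beside 20.4% and 20.8% of all genes. The median log2 difference of the 151 members was 0.02, and that of all genes above the floor 0.12. Of the 41 lower members 12 were under the floor in the derived stem cells, and of the 32 higher ones 2 were under it in the parental cells.

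**Figure D1:**
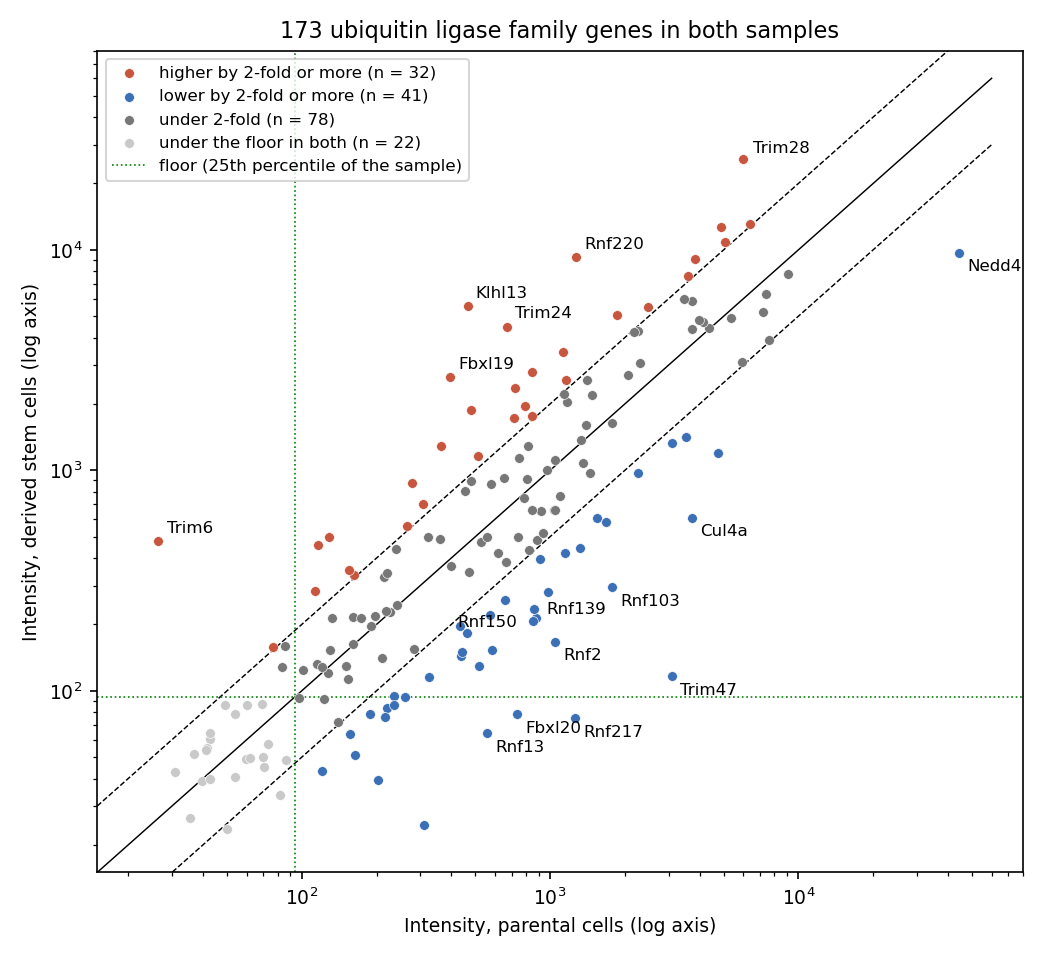
Intensity of each of the 173 ligase genes in the parental cells (x axis, log scale) and the derived stem cells (y axis, log scale), 1 point per gene, with the line of equality, the 2-fold lines (dashed) and the floors (dotted). The named points lie 4-fold or more apart, bounds included: 6 of them, from Trim28 to Trim6, sit above the upper dashed line and 10, from Rnf150 to Trim47, below the lower one.

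The paralogs Cul4a and Cul4b lay on opposite sides, and Trim6 and Trim47 were the ends of the Trim family. The promoter windows of these 4 genes are printed to set the start regions of a higher and a lower gene of 1 family side by side. Each runs 5′ to 3′ on the gene's strand from 250 bases before to 50 bases after the start (RefSeq, GRCm38.p6), in lower case with matches to any of 7 searched motifs in capitals. The motifs, searched on both strands, were a TATA box (TATAAA), a GC box (GGGCGG), an E-box (CACGTG), an ETS site (ACTTCCGG), a cyclic AMP response element (TGACGTCA), the POU octamer (ATGCAAAT) and an ESRRB site (TCAAGGTCA). Cul4a lies at chr8:13105373-13105672 (+ strand), Cul4b at chrX:38576147-38576446 (- strand), Trim6 at chr7:104218545-104218844 (+ strand) and Trim47 at chr11:116110186-116110485 (- strand).
Cul4a: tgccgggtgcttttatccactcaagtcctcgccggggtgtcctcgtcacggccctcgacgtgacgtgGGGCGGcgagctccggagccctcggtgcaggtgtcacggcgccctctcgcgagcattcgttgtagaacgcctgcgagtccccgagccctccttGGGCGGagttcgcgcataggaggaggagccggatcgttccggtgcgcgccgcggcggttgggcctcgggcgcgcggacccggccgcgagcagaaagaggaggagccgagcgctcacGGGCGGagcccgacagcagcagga
Cul4b: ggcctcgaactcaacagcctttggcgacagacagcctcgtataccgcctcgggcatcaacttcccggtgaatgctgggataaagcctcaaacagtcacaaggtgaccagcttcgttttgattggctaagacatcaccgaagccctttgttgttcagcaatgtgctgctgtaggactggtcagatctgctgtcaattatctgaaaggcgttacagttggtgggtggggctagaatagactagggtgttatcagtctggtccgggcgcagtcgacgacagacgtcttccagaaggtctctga
Trim6: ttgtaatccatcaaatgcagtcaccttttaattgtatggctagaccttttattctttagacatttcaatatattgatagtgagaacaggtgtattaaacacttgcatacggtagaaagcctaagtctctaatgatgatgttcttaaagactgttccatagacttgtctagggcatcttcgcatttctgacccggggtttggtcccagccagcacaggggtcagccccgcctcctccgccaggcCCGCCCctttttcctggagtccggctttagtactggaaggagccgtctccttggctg
Trim47: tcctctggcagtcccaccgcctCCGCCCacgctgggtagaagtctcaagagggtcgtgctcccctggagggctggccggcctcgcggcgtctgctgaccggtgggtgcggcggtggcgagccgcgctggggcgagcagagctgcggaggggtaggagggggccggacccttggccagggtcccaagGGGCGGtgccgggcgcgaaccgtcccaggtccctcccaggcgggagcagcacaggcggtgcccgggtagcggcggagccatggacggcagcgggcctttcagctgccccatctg

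Cul4a, the lower gene of its pair, had a window of 71.0% G and C with 43 CpG dinucleotides and 3 GC boxes, and Cul4b one of 52.3% with 14 CpG and no match to the 7 motifs. In the Trim pair the lower gene Trim47 had 74.3% G and C, 29 CpG and 2 GC boxes, and the higher gene Trim6 had 47.0%, 8 CpG and 1 GC box. Windows were found for 142 of the 173 ligase genes (192 windows). Over all of them the contrast in G and C was small. The median was 60.7% for the 28 matched higher genes and 61.2% for the 32 matched lower genes. Their median CpG counts were 17.7 and 24.5, fewer in the higher genes, which was not tested. The printed pairs went the same way, but they were chosen by their values and belong to these sets, so they add no separate evidence. The 62 matched genes under 2-fold had 61.1% and 21.5 CpG, the 20 matched dim genes 53.7% and 6 CpG, and the 9162 array genes with a window 59.7% and 18 CpG. A GC box was in 62.0% of member windows and in 35.7% of all 32851 windows of the table (56.9% of those of array genes). The other motifs were in 9.90% (TATA box), 6.77% (E-box), 7.29% (ETS), 2.08% (response element), 3.13% (octamer) and 0% (ESRRB) of member windows, and in 13.6%, 7.15%, 3.89%, 1.79%, 1.74% and 0.423% of all windows. Among windows of array genes the shares were 8.79%, 9.40%, 6.63%, 2.82%, 1.41% and 0.294%, so the TATA box and the response element changed sides with the background and the ETS share lay near it. These are matches of letters in a window and show no binding.

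Among the Trim genes, RING ligases with B-box and coiled-coil domains, 30 of 36 passed the floor, 9 higher and 10 lower. These were 30% and 33.3%, beside 22.1% and 22.6% of all genes, and the median log2 difference was 0.18. Where both values had to pass the floor 6 were lower, with a median of 0.46, and with the floor at the median the median difference was 0.80. Both settings left fewer Trim genes to count. Trim28, the corepressor that KRAB zinc finger proteins recruit to silence retroviral elements in ES cells, was at 5966 and 25873, 4.34-fold higher. Its relative Trim24, a cofactor of nuclear receptors, was at 668 and 4484, 6.71-fold higher. Trim33, the third gene of that subfamily and a regulator of SMAD signalling, was at 2487 and 5505, 2.21-fold higher. All 3 measured genes of the TIF1 subfamily were thus 2-fold or more higher, Trim33 close to the 2-fold line and at less than 2-fold after intensity-dependent centring. Trim6, described in mouse ES cells as a ligase of MYC, was at 26.4 and 476, the first value under the floor, at least 5.07-fold higher. Trim71, a ligase of early embryonic cells, was not analysed here.

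Trim genes of antiviral defence stood on both sides. Trim25, which modifies the RNA sensor RIG-I, was at 4888 and 12648 (2.59-fold higher). Trim56, linked to sensing of foreign nucleic acids, was at 311 and 24.5, so that it was at least 3.33-fold lower. Trim21, the cytosolic antibody receptor, was at least 2.33-fold lower (217 and 75.9), with both of its probes lower. Trim47 had the largest difference of the Trim genes, at 3083 and 117 (26.5-fold lower). Trim32, a ligase of muscle and neural progenitors, was at 515 and 129.6, 3.98-fold lower. Others between 2-fold and 4-fold lower were Trim35 (4747 and 1196), Trim46 (858 and 235), a microtubule organiser of the axon, Trim59 (978 and 279.9) and Trim44 (3089 and 1324). On the higher side the remaining genes were Trim13 (364 and 1292), an ER-anchored ligase, Trim8 (5055 and 10816), a modulator of cytokine signalling, Trim29 (266 and 558) and Trim27 (6402 and 13055), of which Trim29 and Trim27 were under 2-fold after median centring and Trim8 and Trim27 after intensity-dependent centring. Trim68 and Trim69 were lower as well but ended under the floor, at least 1.75-fold and 2.01-fold. The muscle ligase Trim63 (MuRF1) was at 85.2 and 160, under the floor in the parental cells, a bound of 1.71.

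**Figure D2:**
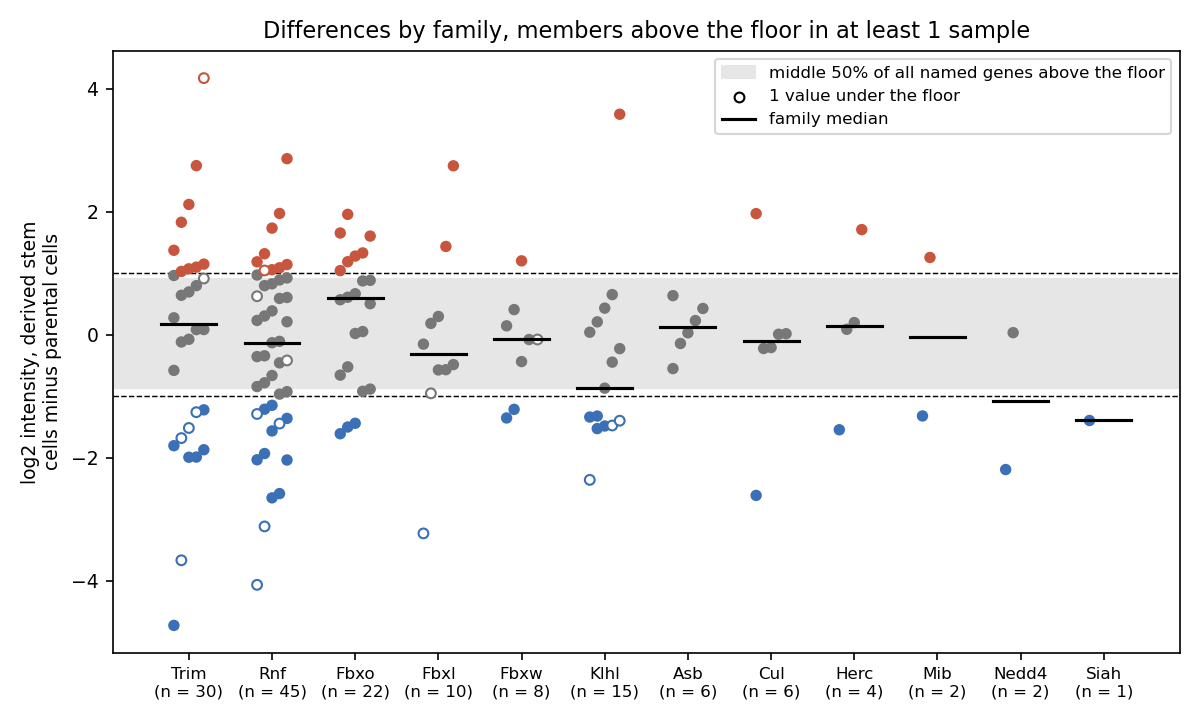
Log2 difference (derived stem minus parental, y axis) of the 151 ligase genes that passed the floor, by family (x axis), 1 point per gene, with open points, drawn at the measured difference, where 1 value was under the floor, bars at the family medians, dashed lines at 2-fold and a grey band for the middle 50% of all genes. The medians of Klhl (-0.87), Nedd4 (-1.08) and Siah (-1.38) lie at or below the lower edge of the grey band and the other 9 inside it, and the highest Klhl gene, Klhl13, stands far above the rest of its family.

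Of 50 Rnf genes, a group that shares little beyond the RING domain, 45 passed the floor, 9 higher and 13 lower (median -0.13). These were 20% and 28.9%, beside 22.1% and 22.6% of all genes. The chromatin ligases Rnf2 and Rnf40 lay on opposite sides. Rnf2 (RING1B), which monoubiquitinates histone H2A in Polycomb complex PRC1, was at 1050.0 and 167, 6.29-fold lower on 1 probe. Its paralog Ring1, outside the families, was at 247 and 153 (1.61-fold lower), while the PRC1 subunit genes Pcgf2 (1007 and 2805, 2.79-fold higher), Pcgf6 (970.4 and 1330.1) and Pcgf1 (524 and 555) were higher or at less than 2-fold. Rnf40, which acts with Rnf20 on histone H2B, was at 1162 and 2559, 2.20-fold higher, and at less than 2-fold after intensity-dependent centring. Rnf8, Rnf20 and Rnf168 were not analysed here.

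Membrane-bound Rnf ligases, chosen after their values were seen, lay on both sides. Rnf13, an endosomal ligase with a protease-associated domain, was at least 5.98-fold lower (559 and 64.5), and its 2 probes gave log2 differences of -1.19 and -5.04. Rnf103, a ligase of the endoplasmic reticulum, was at 1774 and 296 (5.99-fold lower). Rnf139 (TRC8), which degrades proteins at the same membrane, was at 877 and 214 (4.10-fold lower), and Rnf150, which has the domain layout of Rnf13, at 852 and 208 (4.09-fold lower). Rnf167, another endosomal ligase of that layout, went the other way, at 844 and 2802 (3.32-fold higher). Rnf149, of the same layout, was at 937 and 522, less than 2-fold apart. Rnf170 (481 and 892) and Rnf5 (1389 and 1606), further ligases of the endoplasmic reticulum, were higher by less than 2-fold.

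Rnf217, a RING-between-RING ligase, had the largest difference of the family: it was at 1256 in the parental cells and under the floor at 75.0 in the derived stem cells, at least 13.4-fold lower. The same class gave Rnf19a (2257 and 975, 2.32-fold lower) and Rnf19b (1317 and 445, 2.96-fold lower), whereas Rnf31 (HOIP), the ligase of linear ubiquitin chains, was 2.08-fold higher (846 and 1758) and under 2-fold after either centring. Others of the class were Rnf14 (5374 and 4907) and Rnf216 (576 and 866), both under 2-fold, and, from the list of other E3 ligases, Arih1 (406 and 412) and Arih2 (504 and 1448, 2.87-fold higher). Rnf220 had the largest difference upward among Rnf genes, at 1275 and 9254 (7.26-fold higher). Further higher genes were Rnf208 (117 and 457), Rnf126 (789.9 and 1965), a ligase of mislocalised proteins, Rnf32 (511 and 1160.2) and Rnf114 (3581 and 7608). Rnf182 was at 76.8 and 158, a bound of 1.69. The remaining lower genes were Rnf213 (586 and 154), Rnf6 (661 and 257) and Rnf214 (435 and 196), besides Rnf157 and Rnf112, which ended under the floor. Rnf7, the small RING partner of cullin 5, was at 5908 and 3108, Rnf25 at 748 and 1137 and Rnf138, a DNA repair ligase with both probes higher, at 455 and 807, all under 2-fold. Rnf7 passed the 2-fold line on the lower side after median centring, just past it, and after intensity-dependent centring (log2 -1.09). Rnf145 had a mean of 843 and 659, yet its 2 probes went opposite ways by 2-fold or more, at log2 1.53 and -2.25, so that its mean hides the disagreement.

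**Figure D3:**
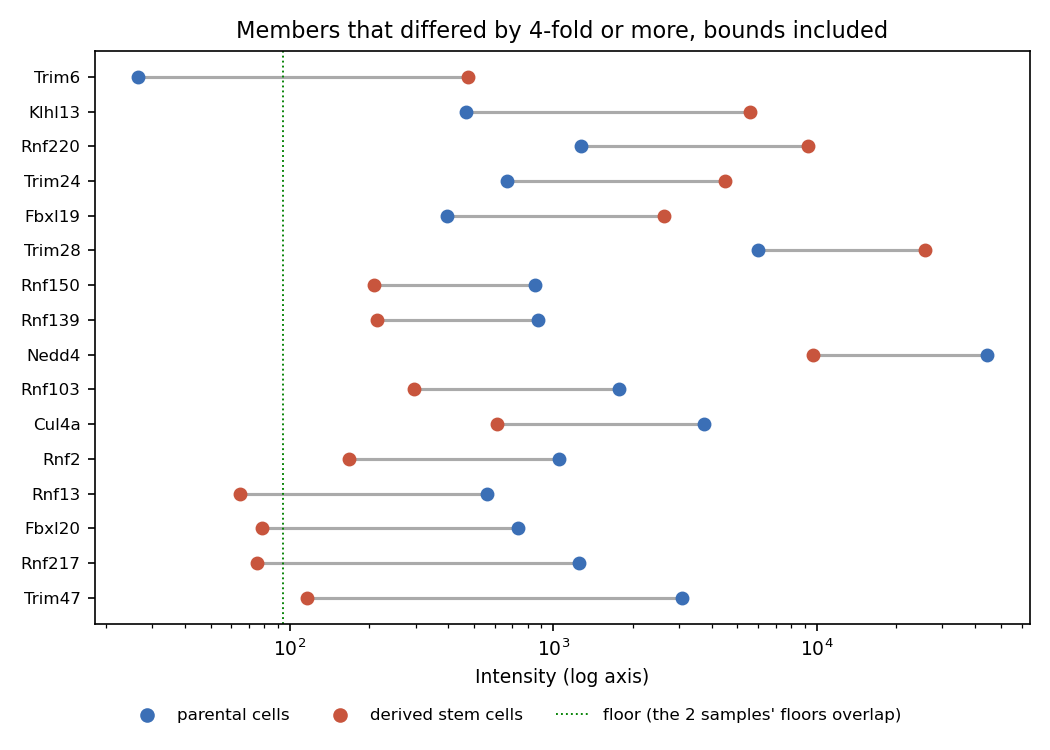
Intensity (x axis, log scale) in the parental cells (blue) and the derived stem cells (red) of the 16 ligase genes that differed by 4-fold or more, bounds included, ordered by difference, with the floor dotted. The blue point lies to the left in the top 6 genes and to the right in the other 10, and Trim6, Rnf13, Fbxl20 and Rnf217 cross the floor.

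F-box proteins bring substrates to the SCF ligase built on cullin 1. Of 22 Fbxo genes above the floor 7 were higher and 3 lower (31.8% and 13.6%, beside 22.1% and 22.6% of all genes). Their median log2 difference was 0.59. None of them reached 4-fold, where 7.50% of all genes were higher and 10.3% lower by that much. The higher count was 6 after median centring and 5 with an offset of 50, with 3 lower in both. Fbxo2, a receptor of glycoproteins, was the highest at 129 and 499.8 (3.88-fold), and the related Fbxo44 was 2.42-fold higher (713 and 1729) with both probes higher. Fbxo36 (278 and 874), Fbxo22 (1131 and 3434), which targets histone demethylases, Fbxo30 (113 and 283), Fbxo41 (155 and 353) and Fbxo7 (162 and 333), a gene of mitophagy, completed the higher group. Fbxo7 was 2.06-fold higher and under 2-fold after median centring or an offset of 50. The lower genes were Fbxo38 (439 and 144, 3.05-fold), Fbxo28 (325 and 115) and Fbxo10 (1145 and 422). Fbxo5 (EMI1), the inhibitor of the anaphase-promoting complex, was at 1408 and 2578 and the muscle atrophy gene Fbxo32 at 239 and 441, both less than 2-fold. Fbxo31 had a mean of 189.9 and 197 from probes at log2 -0.99 and 1.09.

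Of 10 Fbxl genes above the floor, F-box proteins with leucine-rich repeats, 2 were higher and 1 lower (20% and 10%, beside 22.1% and 22.6% of all genes). Fbxl19, which binds CpG islands in ES cells, was at 394 and 2643 (6.70-fold higher). Fbxl5, the iron sensor that degrades IRP2, was at 1867 and 5042 (2.70-fold higher). Fbxl20, a regulator of synaptic vesicle release, was at 735 and 78.3, at least 7.87-fold lower. The other 7 ranged from a log2 difference of -0.95 (Fbxl13) to 0.30 (Fbxl22). Among the 8 Fbxw genes, whose receptors carry WD40 repeats, Fbxw7, which degrades MYC, cyclin E and NOTCH, was at 308 and 707 (2.30-fold higher). Fbxw17 was 2.32-fold lower (915 and 394) and Fbxw8, the partner of cullin 7, 2.56-fold lower (1550.4 and 607). The probes of Fbxw8 gave log2 differences of -0.36 and -2.34, and with the brighter probe alone it was under 2-fold. Fbxw11 (beta-TrCP2) was at 788 and 746, Fbxw5 at 2308 and 3061, Fbxw4 at 198 and 218 and Fbxw9 at 154 and 114. Fbxw2 averaged 97.5 and 93.2 over 3 probes that read apart, at 50.9 and 48.9, 186 and 174.7, and 98.0 and 94.7, and each differed little between the samples.

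Klhl proteins are receptors of cullin 3. Of 15 Klhl genes above the floor 7 were lower (46.7%, where 22.6% of all genes were), and 1 was higher (6.67%, where 22.1% of all genes were). The lower count was 6 when computed with bounds, 4 where both values had to pass the floor and 3 with the floor at the median. The median log2 difference of -0.87 became -0.45, -0.34 and -0.23. The last 2 settings also left fewer Klhl genes to count, and the share of all genes under them is not given, so the counts alone show no smaller share. Klhl13, an X-linked gene whose product acts with Klhl9 on the Aurora B kinase in mitosis, was the exception at 465 and 5573 (12.0-fold higher). Klhl21, which shares that substrate, was at 976 and 1003, and Klhl22, a receptor for the mitotic kinase PLK1, at 7411 and 6331, so both stayed under 2-fold. The lower genes above the floor in both samples were Klhl7 (1676 and 582), Klhl42 (461 and 182), Klhl26 (3534 and 1412) and Klhl18 (262 and 93.4, the second value at the floor). Klhl29 (at least 2.16-fold), Klhl12 (at least 2.36-fold), a regulator of COPII vesicles, and Klhl23 (at least 1.29-fold) ended under it. Klhl6, a gene of B cells, was at 3742 and 5877, less than 2-fold apart. No Asb gene reached 2-fold, where 44.7% of all genes above the floor did in either direction, but only 6 Asb genes were above it. The 6 lay between a log2 difference of -0.55 (Asb13, 619.6 and 423) and 0.63 (Asb6, 322 and 499), with Asb1 at 525 and 475, Asb8 at 3717 and 4356, Asb14 at 161 and 216 and Asb18 at 160.1 and 163.

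Of the 6 measured cullins 1 was 2-fold or more higher and 1 lower (16.7% each, beside 22.1% and 22.6% of all genes). These were the CUL4 pair, which builds DDB1-based ligases and lay on opposite sides. The other 4 lay within 1.17-fold, a limit read from their own values. Cul1 and Cul5 were not analysed here. Cul4a was at 3730.1 and 609.9, 6.12-fold lower on 1 probe. Cul4b was at 479 and 1874, 3.91-fold higher, and its 2 probes gave log2 differences of 2.74 and 1.20. The log2 differences of these paralogs, whose promoter windows are printed above, lay 4.58 apart. Cul3, the scaffold of the Klhl receptors, was at 9116 and 7799, Cul2, that of the VHL ligase, at 227 and 228, Cul7 at 4368 and 4414 and Cul9 at 150.3 and 130.0.

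The genes that work with the cullins were compared with them from lists chosen with earlier results known. Of all genes above the floor 22.1% were higher and 22.6% lower. Of 19 measured cullin partners 3 were higher and 5 lower (15.8% and 26.3%, median -0.06). Rbx1, the RING subunit of most cullin ligases, was at 3291 and 787 (4.18-fold lower) and Eloc, the elongin C adaptor, at 1497 and 552 (2.71-fold lower). Skp1, the adaptor of F-box proteins, was 2.74-fold higher (2883 and 7896), and Ddb1, the adaptor of both CUL4 proteins, was at 2697 and 4913, less than 2-fold. Keap1, the cullin 3 receptor of NRF2, was at 1977 and 2591 and Vhl at 1774 and 2992. Of 13 measured genes of neddylation, the modification that activates cullins, and of the COP9 signalosome, which removes it, 1 was higher and 3 lower (median -0.33). Uba3, the catalytic subunit of the NEDD8 activating enzyme, was at 2501 and 667 (3.75-fold lower) and Nedd8 itself at 23578 and 17386. Cops7a was the higher one (737 and 1972, 2.68-fold), and with its brighter probe alone it was under 2-fold.

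**Figure D4:**
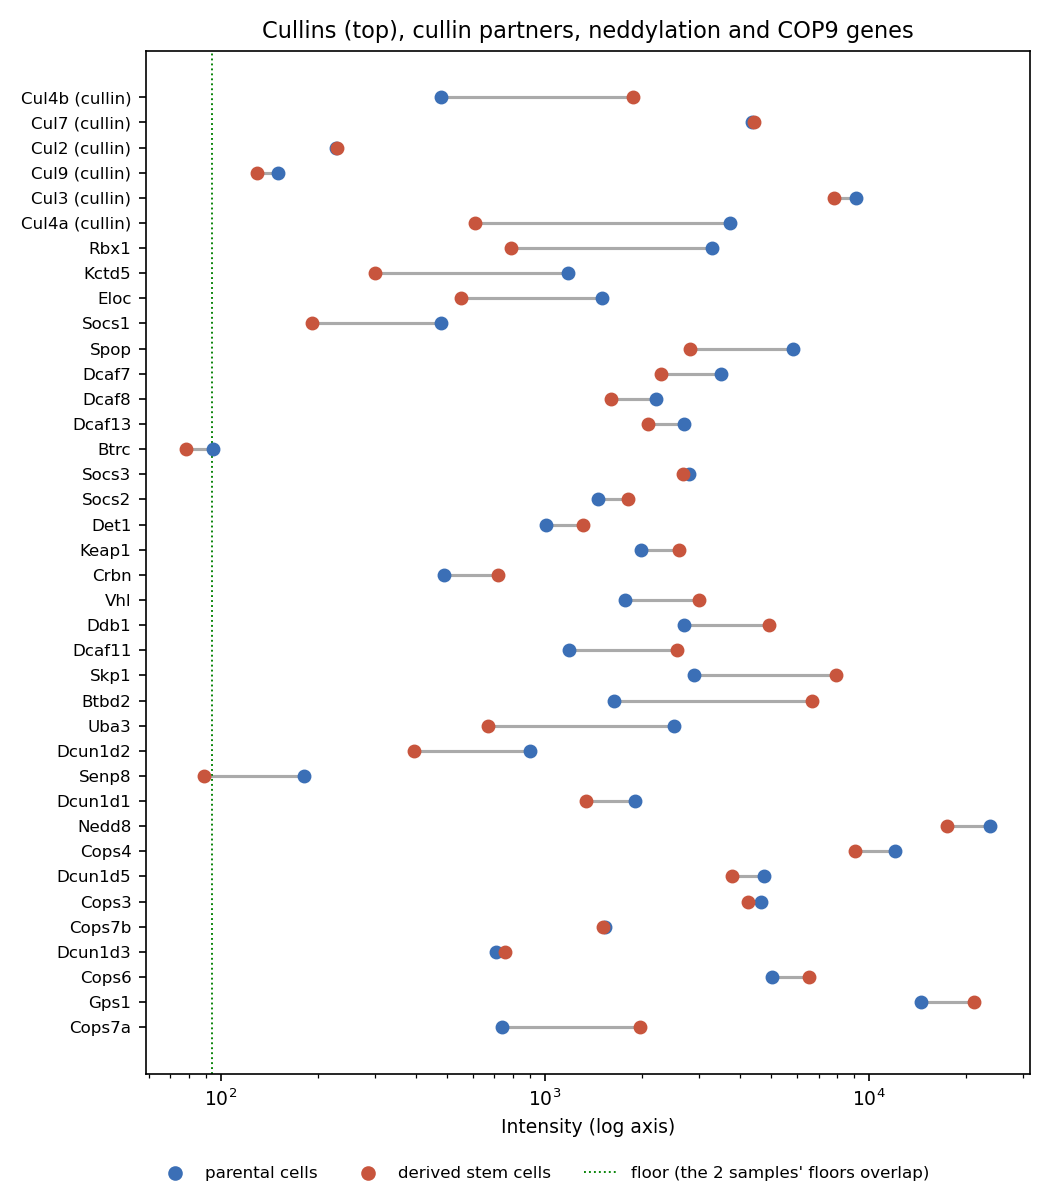
Intensity (x axis, log scale) in the parental cells (blue) and the derived stem cells (red) of the 6 cullins, 19 partner genes and 13 genes of neddylation and the COP9 signalosome, with the floor dotted. Cul4b has its red point to the right and Cul4a to the left, Rbx1 and Uba3 lie to the left by 4.18-fold and 3.75-fold, and the points of the other 4 cullins lie within 1.17-fold.

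HECT ligases and the smaller families followed. Nedd4, the founder of its class and a regulator of growth factor receptors, was at 44420.2 and 9719 (4.57-fold lower). Both values lie below 65535, the ceiling of a 16-bit scan. The scan is not described and the values are normalised, so saturation of the spot cannot be judged. Its paralog Nedd4l, which controls a sodium channel, was at 1336 and 1367, nearly equal in the 2 samples. Further HECT genes of the same subfamily, from the list of other E3 ligases, were on both sides. Itch was at 1017 and 94.7 (10.7-fold lower, the second value just above the floor). Wwp1 was at 2312 and 485 (4.76-fold lower) and Wwp2 at 778 and 2345 (3.01-fold higher). Smurf1 was at 1385 and 714, under 2-fold but past it, on the lower side, after either centring (log2 -1.03 and -1.09). Among the Herc genes Herc4 was 3.27-fold higher (726 and 2369) and Herc3 2.92-fold lower (440.0 and 151), while the giant proteins' genes Herc1 (4110.4 and 4709) and Herc2 (1044 and 1109) differed little.

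The Mib genes, ligases of Notch ligands, were another pair on opposite sides, with Mib1 at 235 and 94.2 (2.50-fold lower) and Mib2 at 3827 and 9130.3 (2.39-fold higher). Mib1 ended just above the floor and was under 2-fold with an offset of 50. Siah1a, a RING ligase named after the fly gene sina, was at 575 and 221 (2.60-fold lower). It has a close copy, Siah1b, and which of them the probe reads was not determined. Siah3 was dim (61.7 and 49.7).

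The 22 dim genes had 6 in the Trim family (Trim30c, Trim40, Trim43c, Trim67, Trim75 and Trim80), 5 in Rnf (Rnf133, Rnf144b, Rnf148, Rnf222 and Rnf224) and 4 in Klhl (Klhl14, Klhl15, Klhl34 and Klhl41). The rest were Asb5, Asb10, Asb16, Fbxl17, Fbxl21, Fbxo48 and Siah3. Their values ran from 23.6 (Fbxl21 in the derived stem cells) to 87.2 (Asb5 in the same cells). At this signal no difference of theirs can be read.

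Agreement between probes could be checked in few members. Of 14 genes with 2 or more probes 12 had at least 2 probes above the floor, and in 9 of those 12 the probes had the same sign. The exceptions were Rnf145, Fbxo31 and Klhl25. Near the 2-fold line lay Trim27 (2.04-fold higher) and Fbxo7 (2.06-fold) just past it, and Rnf115 (1.96-fold higher) and Rnf187 (1.95-fold lower) just short of it.

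The enzymes that act before and beside these families were described from 3 more lists. Their shares stand beside 22.1% higher and 22.6% lower among all genes above the floor. Of 23 genes of E1 and E2 enzymes above the floor 3 were higher and 8 lower (13.0% and 34.8%, median -0.48). Of those 8, Uba7, Ube2b, Ube2ql1 and Ube2w ended under the floor, so that 4 were lower where both values had to pass it, and 5 with the floor at the median. Both settings also left fewer genes of this list to count. Ube2s, which extends chains for the anaphase-promoting complex, was 3.48-fold higher (3317 and 11549), and Ube2h was 4.35-fold lower (3336 and 766). Uba7, the E1 of the ubiquitin-like protein ISG15, was at 525 and 35.1, at least 5.62-fold lower. Of 10 genes of the anaphase-promoting complex, Fbxo5 included, 2 were higher and none lower: its activator Fzr1 (924 and 2463, 2.67-fold) and Anapc11 (138 and 324, 2.34-fold), its RING subunit, which was under 2-fold with an offset of 50. Of 42 other E3 ligases 13 were higher and 7 lower (31.0% and 16.7%, median 0.16), which became 12 and 10 after median centring and 11 and 11 after intensity-dependent centring. Uhrf1, which guides maintenance methylation of DNA, was at 4349 and 20184 (4.64-fold higher). Huwe1, a HECT ligase, was at 10259 and 23978 (2.34-fold higher, under 2-fold after intensity-dependent centring). Dtx1, a Notch regulator, was at 28.4 and 888, at least 9.47-fold higher. At 4-fold or more 3 of this list were higher and 5 lower, beside 7.50% and 10.3% of all genes. The lower ones were Itch and Wwp1 (above), Zswim8 (623 and 100, 6.20-fold), Dtx4 (431.5 and 94.7, 4.56-fold) and Hace1 (1243 and 278, 4.47-fold). Zswim8 and Dtx4 ended near the floor.

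**Figure D5:**
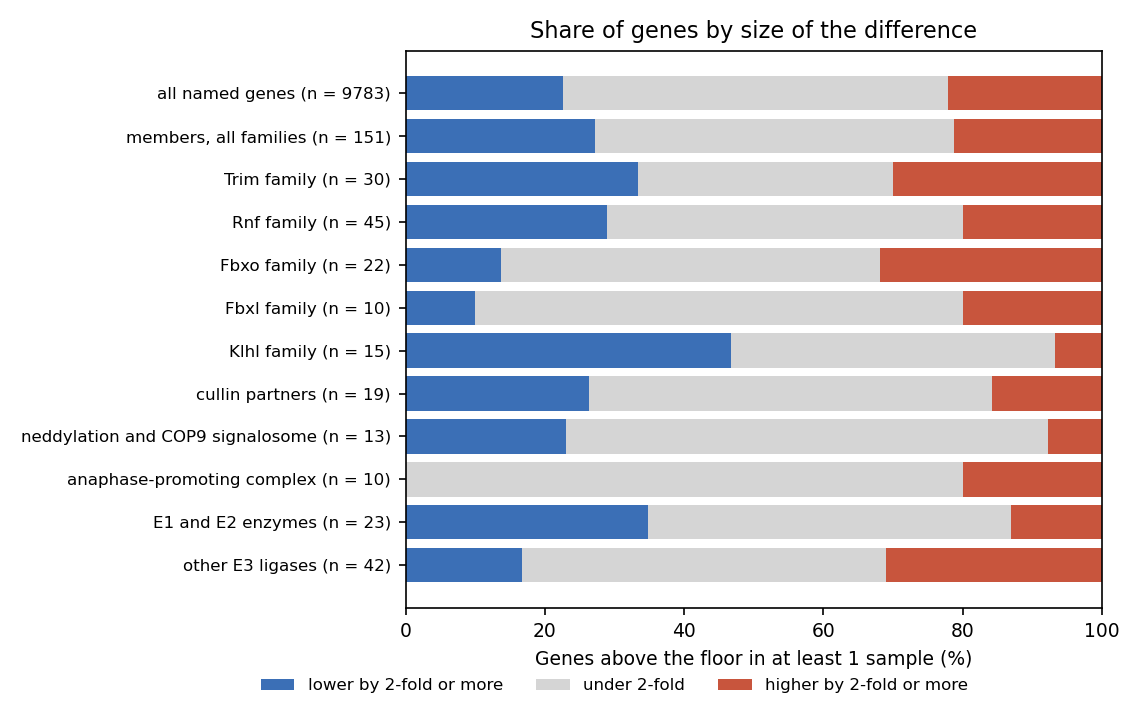
Share of genes above the floor (x axis, %) that were lower by 2-fold or more (blue), under 2-fold (grey) or higher by 2-fold or more (red) in the derived stem cells, for all genes, the 151 ligase genes, each family of 10 or more genes above the floor, and the 5 related lists. The bar of the ligase genes (27.2% lower, 21.2% higher) is close to that of all genes (22.6% and 22.1%), with the Klhl bar (46.7% lower) and the Fbxo bar (31.8% higher) at the ends among the families drawn.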

How the data were processed

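RNA was labelled with Cy5 and hybridised to a 1-colour array, the Phalanx Mouse Whole Genome OneArray v2, per the labels. The authors deposited linear, normalised intensities per probe. The labels and the file do not state how the arrays were scanned, corrected, normalised or pooled. The quantiles of both columns were nearly equal (medians 304 and 305), so a shift in total signal cannot be seen. Of 13989 probes 12380 carried a gene symbol in the platform annotation and 1609 were not listed. Intensities were brought to log2 and probes averaged per gene. All 173 ligase genes matched a RefSeq gene (GRCm38.p6) by Entrez identifier, and none changed its symbol.

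With 1 sample per group there was no test and no p-value: genes were counted at 2-fold and 4-fold, beside the share of all genes past the same fold. The members, the gene lists and the naming rule were chosen with earlier results of these data known. The rule named members at 4-fold or more, the highest and lowest of each family, all members of families under 10 genes, members whose probes disagreed by 2-fold both ways, and a list of known genes (67 in all); the other members named were chosen after their values were seen, chiefly those past 2-fold. Alternatives were median centring, quantile normalisation, lowess centring (span 0.3), the brightest probe, an offset of 50, other floors, bounded values, a 4-fold rule and updated symbols. The counting code was checked on simulated data, with differences planted in bright genes of 1 probe and noise well under the probe error. That check covers the code and not the calls. Python 3.11.15, pandas 2.3.3 and statsmodels 0.14.6 were used.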

Additional observations from a re-analysis of the deposited data

How the results depend on the processing

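The number of ligase genes 2-fold or more higher (32) lay between 26 and 32 under centring, another floor, the brightest probe, the offset or bounded values. The number lower (41) lay between 29 and 44. Quantile normalisation and updated symbols gave 32 and 41 again. Neither could move the counts much, because the quantiles of the columns were nearly equal and no member changed its symbol. The 4-fold rule left 6 higher and 12 lower. The median log2 difference of 0.02 became -0.10 after lowess centring, where that of all genes above the floor became 0.04, and centring moved the median of all 11484 genes by 0.07. No member past 2-fold changed direction under these alternatives. Those that fell under 2-fold were 5 with median centring (Fbxo7, Rnf31, Rnf182, Trim27 and Trim29), 6 with lowess centring (Rnf31, Rnf40, Rnf114, Trim8, Trim27 and Trim33), 9 with the offset (Fbxo7, Fbxo41, Klhl23, Mib1, Rnf112, Rnf182, Rnf214, Trim29 and Trim69), 4 with bounded values (Klhl23, Rnf112, Rnf182 and Trim68) and 1 with the brightest probe (Fbxw8). Those that came past it on the lower side were Rnf7 and Rnf187 with either centring, Fbxl13 with median centring, Fbxo21 with lowess centring and Rnf145 with the brightest probe. The floor at the median took 12 calls out of the count, and a floor in both samples 14. No paired analysis was possible because each group has 1 sample. Signal near the floor limits the 22 dim genes and the 19 genes with 1 value under it.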
